A study of Mus musculus with 30 samples.

Results

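The 48 mitotic (G2/M) genes described here encode the kinases, cyclins, kinesins, kinetochore, checkpoint, spindle, cytokinesis and chromosome proteins with which a cell enters, passes and leaves mitosis. They were taken from a fixed list of symbols, each of which matched 1 identifier among the 55401 genes of the count tables, and all 48 passed the filter on low counts in the exon columns of all 4 tables. Nuclear RNA of mouse embryonic stem (ES) cells was sequenced in 30 libraries of 15 groups, 2 replicates each, to ask what the loss of SRCAP, the catalytic subunit of a complex that exchanges histone H2A for H2A.Z, does to transcription.

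CGR8 is the parental ES line, without a tagged protein, and was compared with and without 4 h of indole-3-acetic acid (IAA) at 500 µM. SYAT cells are CGR8 cells of 1 clone in which both Srcap alleles carry YPet-AID, and they express the receptor Tir1 from a lentiviral vector, so that IAA degrades SRCAP. They were treated for 2, 4, 6 or 8 h, while their controls received auxinole, an inhibitor of Tir1. The methods give auxinole as the control condition of SYAT cells. SYAT cells that also carry an mCherry reporter of the time since mitosis were sorted as early G1 (EG1, low Hoechst and low mCherry) or late G1 (LG1, low Hoechst and high mCherry), with or without 1 h of IAA. SYAT cells of 1 clone each that express wtSRCAP-mCherry or the catalytically dead cdSRCAP-mCherry after 24 h of doxycycline at 1 µg/mL were sorted for similar mCherry and compared with and without 4 h of IAA. Controls of these 2 lines were left in auxinole. Every group but the 2 of CGR8 therefore carries the degron and Tir1, and the reporter and the SRCAP transgenes come with the sorting they required.

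Most mitotic genes are kept off in G1 by the DREAM complex and are switched on in G2 by B-MYB and FOXM1, which act with DREAM subunits at a promoter element called the CHR, often beside CCAAT boxes bound by NF-Y. Their products, such as cyclin B, CDC20 and Aurora B, are degraded by the anaphase-promoting complex (APC/C) as the cell leaves mitosis. ES cells cycle fast with a short G1. Because the libraries were made from pooled nuclei, fewer cells with a transcript and less of it per cell cannot be told apart.

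The promoters of 6 members that the results turn on are printed here because Cdc20, Plk1 and Cenpa were higher and Prc1, Top2a and Cdk1 lower in early than in late G1. Each line holds the 100 bases before the RefSeq start (GRCm38.p6), 5′ to 3′ on the strand of the gene, with CCAAT (or ATTGG, its reverse complement) and the CHR-type words TTTGAA (or TTCAAA) and TTTAAA in capitals.
Cdc20: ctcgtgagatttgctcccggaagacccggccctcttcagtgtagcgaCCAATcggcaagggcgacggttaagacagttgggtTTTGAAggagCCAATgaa
Plk1: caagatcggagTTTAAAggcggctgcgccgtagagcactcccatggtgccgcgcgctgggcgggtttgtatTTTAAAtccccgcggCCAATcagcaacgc
Cenpa: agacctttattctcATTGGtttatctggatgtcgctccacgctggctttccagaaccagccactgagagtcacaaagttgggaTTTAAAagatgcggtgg
Prc1: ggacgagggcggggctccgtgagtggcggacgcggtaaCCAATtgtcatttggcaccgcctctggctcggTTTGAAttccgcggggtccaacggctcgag
Top2a: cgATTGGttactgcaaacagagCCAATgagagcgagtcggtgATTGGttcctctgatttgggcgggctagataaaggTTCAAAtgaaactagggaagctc
Cdk1: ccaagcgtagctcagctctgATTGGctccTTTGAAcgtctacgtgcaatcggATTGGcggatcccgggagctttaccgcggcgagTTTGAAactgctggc

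These windows lie at chr4:118437344-118437443 (minus strand) for Cdc20, chr7:122159335-122159434 (plus) for Plk1, chr5:30666786-30666885 (plus) for Cenpa, chr7:80294376-80294475 (plus) for Prc1, chr11:99024190-99024289 (minus) for Top2a and chr10:69352913-69353012 (minus) for Cdk1. The windows of Plk1 and Top2a are upstream of the gene as GENCODE draws it, and those of Cdc20, Cdk1, Cenpa and Prc1 lie partly or wholly inside it, since GENCODE places the outermost start further upstream. All 6 hold both a CCAAT word and a CHR-type word, in the group that was higher in early G1 and in the group that was lower. This does not hold for every member that differed. Hmmr, Bub1b, Ccnb2 and Aurka, also higher in early G1 in control, have no CHR-type word in the 100 bases before the start. Bub1b has no CCAAT there either. In the 250 bases before the start, Ccnb2 has TTTGAA and Bub1b has CCAAT. Of the 41 members with a RefSeq promoter, 28 (68.3%) had CCAAT in the 100 bases before the start, against 21.6% of the 27025 genes of the table. TTTGAA was in 10 of them (24.4%) against 6.76% of genes, and TTTAAA in 3 (7.32%) against 5.12%. A CCAAT word together with either CHR-type word was found in 11 members (26.8%), against 2.49% of genes. Both strands were searched, but bases after the start were not, so a word missing here may still lie there. No 2 words overlap in the 6 windows printed, and a match is a run of letters and not a measured binding site. The promoters of Aurkb, Ccna2, Dlgap5, Incenp, Kif20a, Smc4 and Tpx2 were not analysed here.

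Exon columns summed to between 45617992 and 60214521 counts per library in CGR8, 17540823 and 22873893 over the hours of IAA in SYAT, 19740778 and 26672402 in EG1 and LG1, and 12236493 and 26369773 in the lines with an SRCAP transgene. All 10 ES cell markers were over 1 CPM in every library, and 10 markers of differentiated or feeder cells summed to at most 421 CPM where the ES markers summed to at least 1918 CPM. Srcap RNA was present in every library (20.2 to 74.0 CPM), and since the degron acts on the protein, its RNA does not check the depletion. The 6 h SYAT replicates agreed least with each other (Pearson's r of log2 CPM 0.9758, against 0.9829 or more in the other SYAT groups), and 1 gene without a symbol took between 2.58% and 23.9% of the exon counts of a library, most of all in replicate 1 of wtSRCAP after IAA. From start to end, 19 members overlap a gene on the other strand and 10 overlap one on the same strand. Whether strand was used in the counting is not given in the sources used here, so reads of such a pair could be shared.

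Per kilobase of exon, Cdc20, the activator of the APC/C at the end of metaphase, had the highest level of the 48 in each table, with a median over libraries of 211 CPM per kb in CGR8, 229 in SYAT, 103 in EG1 and LG1, and 230.4 in the lines with an SRCAP transgene. Top2a, the topoisomerase that untangles chromosomes, was next in SYAT and CGR8, at 129.7 and 128 CPM per kb. The lowest levels per kb were those of Kif18a, a kinesin that dampens chromosome oscillation, at 3.94 in CGR8, 3.77 in SYAT and 2.23 CPM per kb in the sorted cells. The median member stood at 28.9, 26.7, 12.1 and 24.5 CPM per kb in CGR8, SYAT, phase-sorted and transgene-bearing cells. The tables were scaled separately, so these levels were set side by side and not tested.

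Early against late G1 gave the widest spread of the mitotic genes in any comparison. In control cells Cdc20, Plk1, Tpx2, Cenpa, Hmmr, Bub1b, Ccnb2, Aurka and Kif20a rose in EG1 relative to LG1, by 0.50 to 0.93 on the log2 scale, on which 1 is a 2-fold difference. Aurkb, Prc1, Top2a, Smc4 and Cdk1 went the other way and were lower in EG1 by 0.78 to 1.25. These 14 calls come from the fit in which the replicate number is a block, and a call here means an adjusted p under 0.05 with an absolute log2 fold change over 0.5. The block was added because replicates with the same number deviate together in the counts of this table. The authors' methods name no replicate term, so the pairing is inferred from the data and the calls depend on it. Without the block, edgeR called 0 members and 0% of all genes. DESeq2 without it called 1 member in control (Smc4) and 2 after IAA (Prc1 and Smc4), beside 0.00476% and 0.00951% of all genes. In edgeR, 11 and 14 members had an unadjusted p under 0.05 where 1.44% and 2.31% of all genes had one.

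With the block, edgeR called 152 of 21020 genes (0.723%) in control, 113 of them lower (0.538%) and 39 higher (0.186%). Of the 48 members, 14 were called, 5 lower and 9 higher. After IAA 213 genes (1.01%) were called, 172 lower (0.818%) and 41 higher (0.195%), and 16 members were among them, 6 lower and 10 higher. In control the members' median log2 fold change was 0.17 beside -0.00061 over all genes tested, with 30 members above 0 and 18 below. After IAA it was 0.13 beside -0.01, with 29 above and 19 below. With 1 library left out and the block kept, the median ran from 0.12 (without replicate 2 of EG1) to 0.25 (without replicate 1 of EG1) in control. After IAA it ran from 0.04 (without replicate 2 of LG1) to 0.24 (without replicate 1 of LG1), with 0.06 without replicate 2 of EG1. The 2 comparisons use different libraries but come from the same fit with a common replicate term, so their overlap is not independent replication. In both, 5 genes were called lower (Aurkb, Cdk1, Prc1, Smc4 and Top2a), which is all 5 of the control calls and 5 of the 6 after IAA. Of the higher calls, 7 were shared (Bub1b, Ccnb2, Cdc20, Cenpa, Hmmr, Plk1 and Tpx2), out of 9 in control and 10 after IAA. Set against each other within replicate number and treatment, 24 of the 48 members (50%) were higher in EG1 in all 4 pairs, as were 12.2% of all genes, and 15 (31.2%) were lower in all 4, as were 14.7%.

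**Figure D1:**
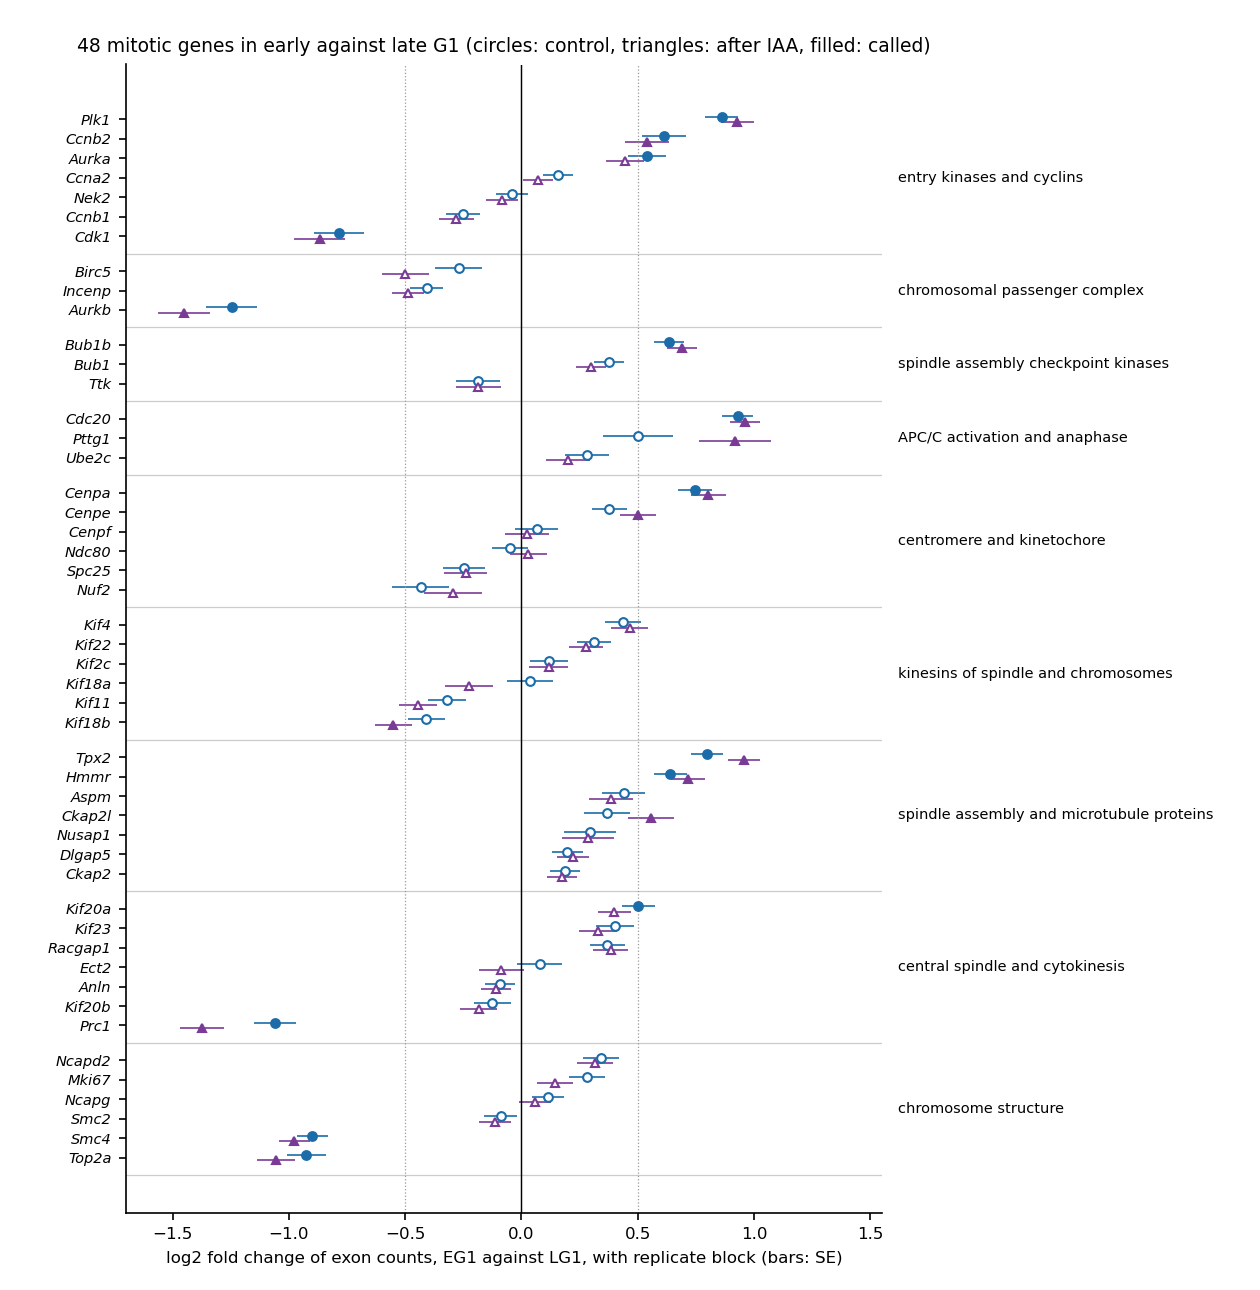
Log2 fold change of exon counts in EG1 against LG1 (x axis) for each of the 48 mitotic genes, ordered by role and by size in control, from the edgeR fit with the replicate block. Circles are control cells, triangles cells after 1 h of IAA, filled symbols are called genes and bars are standard errors. Cdc20 lies at 0.93 and 0.96, Aurkb at -1.25 and -1.45, and the 7 spindle assembly and microtubule proteins lie above 0 under both treatments.

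Among the 7 entry kinases and cyclins, which drive the cell from G2 into mitosis, 3 were called higher and 1 lower in EG1 in control. Plk1, the Polo-like kinase that promotes entry, centrosome maturation and cytokinesis, had 73.9 and 127 CPM in the EG1 control replicates and 43.0 and 66.3 CPM in the LG1 ones. After IAA it had 73.0 and 120 CPM in EG1 and 40.4 and 60.02 CPM in LG1. Both EG1 values lay above both LG1 values under either treatment, and the log2 fold change was 0.86 ± 0.07 (SE, adjusted p = 2.07e-07, edgeR with block) in control and 0.93 ± 0.07 (adjusted p = 1.00e-07) after IAA. Cdk1, the kinase that drives mitosis, had 12.8 and 25.6 CPM in EG1 control and 24.2 and 40.9 CPM in LG1 control. IAA-treated cells had 11.7 and 26.3 CPM in EG1 and 26.6 and 40.7 CPM in LG1. Its EG1 and LG1 ranges overlapped in control, where replicate 2 of EG1 exceeded replicate 1 of LG1, while each EG1 library lay below the LG1 library of its own number. The log2 fold change of Cdk1 was -0.78 ± 0.11 (adjusted p = 2.04e-04) in control and -0.87 ± 0.11 (adjusted p = 6.57e-05) after IAA.

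The cyclins of the same group did not move as one. Ccnb2, cyclin B2, had 44.4 and 73.5 CPM in EG1 control and 27.3 and 50.2 CPM in LG1 control, and was higher in EG1 by 0.61 ± 0.095 (adjusted p = 8.37e-04) there and by 0.54 ± 0.095 (adjusted p = 2.51e-03) after IAA. Ccnb1, cyclin B1, the partner that activates CDK1, had 64.2 and 119 CPM in EG1 control and 83.1 and 132 CPM in LG1 control. Its log2 fold change was -0.25 ± 0.07, which was not called (adjusted p = 0.110), so the paralogous cyclins B1 and B2 lay on opposite sides of 0. Ccna2, cyclin A2, stood at 0.16 ± 0.07 (adjusted p = 0.336) and the centrosomal kinase Nek2 at -0.04 ± 0.07 (adjusted p = 0.875). Aurka, the spindle pole kinase Aurora A, had 33.99 and 53.9 CPM in EG1 control and 25.7 and 34.02 CPM in LG1 control, a log2 difference of 0.54 ± 0.08 (adjusted p = 6.75e-04). After IAA the difference for Aurka was 0.44, under the size limit of a call.

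All 3 members of the chromosomal passenger complex, which corrects the attachment of chromosomes and later steers cytokinesis, lay below 0. Aurkb, its kinase Aurora B, showed the largest difference of the 48 genes in this fit. It had 9.8 and 15.2 CPM in EG1 control and 27.2 and 31.1 CPM in LG1 control. With IAA the values were 9.3 and 14.6 CPM in EG1 and 26.4 and 38.8 CPM in LG1. The EG1 and LG1 libraries of Aurkb did not overlap, and the log2 fold change was -1.25 ± 0.11 (adjusted p = 5.21e-07) in control and -1.45 ± 0.11 (adjusted p = 1.08e-07) after IAA. Incenp, the scaffold of the complex, had 50.6 and 80.1 CPM in EG1 control and 70.8 and 101 CPM in LG1 control, a log2 difference of -0.41 ± 0.07 (adjusted p = 2.46e-03) that stayed under the size limit of a call. Birc5, the subunit survivin, stood at -0.27 ± 0.10 (adjusted p = 0.256).

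The 3 members that control the start of anaphase lay above 0. Cdc20 had 200.4 and 341 CPM in EG1 control and 105 and 179 CPM in LG1 control. After 1 h of IAA it had 221 and 339 CPM in EG1 and 108 and 183 CPM in LG1. Every EG1 library of Cdc20 lay above every LG1 library, with a log2 fold change of 0.93 ± 0.07 (adjusted p = 3.48e-08) in control and 0.96 ± 0.07 (adjusted p = 2.30e-08) after IAA. Pttg1, securin, the inhibitor of separase, was among the lowest members, with 6.2 and 9.9 CPM in EG1 control, 4.3 and 7.0 CPM in LG1 control, 8.1 and 10.0 CPM in EG1 after IAA and 3.8 and 6.0 CPM in LG1 after IAA. It was called after IAA (0.92 ± 0.15, adjusted p = 1.66e-03) and not in control (0.50 ± 0.15, adjusted p = 0.122), and the test of the difference between the treatments did not pass (adjusted p = 0.999). Ube2c, an E2 enzyme of the APC/C, stood at 0.28 ± 0.10 (adjusted p = 0.196).

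Of the 3 checkpoint kinases, which delay anaphase until chromosomes are attached, Bub1b was called. Bub1b, which encodes the checkpoint protein BUBR1, had 129 and 193 CPM in EG1 control and 87.7 and 118 CPM in LG1 control. IAA-treated cells had 139 and 194 CPM in EG1 and 84.5 and 123 CPM in LG1. The EG1 libraries of Bub1b lay above the LG1 ones, by 0.63 ± 0.07 (adjusted p = 5.37e-06) in control and 0.69 ± 0.07 (adjusted p = 1.77e-06) after IAA. Bub1 passed the adjusted p in control but not the size limit (0.38 ± 0.06, adjusted p = 2.44e-03), and Ttk, the kinase MPS1 that starts the checkpoint signal, was at -0.19 ± 0.09 (adjusted p = 0.463).

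The 6 centromere and kinetochore members split into 3 above and 3 below 0 in control. Cenpa, the histone H3 variant that marks centromeres and is loaded in early G1, had 47.8 and 72.5 CPM in EG1 control and 27.4 and 44.6 CPM in LG1 control. With IAA the values were 50.7 and 70.0 CPM in EG1 and 28.5 and 40.9 CPM in LG1. Its EG1 values exceeded its LG1 values in every library, by 0.75 ± 0.07 (adjusted p = 3.42e-06) in control and 0.80 ± 0.08 (adjusted p = 1.46e-06) after IAA. Cenpe, a kinetochore kinesin, had 108 and 127 CPM in EG1 and 85.1 and 80.0 CPM in LG1 after IAA and was called there (0.50 ± 0.08, adjusted p = 7.50e-04). Nuf2 and Spc25, subunits of the NDC80 complex that binds microtubules, stood at -0.43 ± 0.12 (adjusted p = 0.0956) and -0.25 ± 0.09 (adjusted p = 0.248) in control. Ndc80 itself stood at -0.05 ± 0.08 and the corona protein gene Cenpf at 0.06 ± 0.09.

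The kinesins of spindle and chromosomes gave 1 call, Kif18b after IAA. Kif18b, a kinesin of astral microtubules, had 61.5 and 57.7 CPM in EG1 and 85.4 and 89.4 CPM in LG1 after IAA (-0.55 ± 0.08, adjusted p = 3.51e-04), and -0.41 ± 0.08 (adjusted p = 8.05e-03) in control. Kif11, the motor Eg5 that pushes spindle poles apart, had 46.9 and 73.5 CPM in EG1 control and 65.7 and 82.3 CPM in LG1 control. Its log2 fold change of -0.32 ± 0.08 was not called (adjusted p = 0.0501), and its EG1 and LG1 libraries overlapped. The chromokinesins Kif4 and Kif22 stood at 0.44 ± 0.08 and 0.31 ± 0.07, with adjusted p of 4.33e-03 and 0.0295 but under the size limit.

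The 7 spindle assembly and microtubule proteins were the one role besides the APC/C members in which every gene lay above 0, in control and after IAA. Tpx2, which activates Aurora A and nucleates spindle microtubules, had 103 and 162 CPM in EG1 control and 63.0 and 88.0 CPM in LG1 control. After IAA its levels were 117 and 164 CPM in EG1 and 60.5 and 84.5 CPM in LG1. Each EG1 library of Tpx2 lay above each LG1 library, with a log2 fold change of 0.80 ± 0.07 (adjusted p = 3.79e-07) in control and 0.96 ± 0.07 (adjusted p = 4.13e-08) after IAA. Hmmr, a spindle-binding hyaluronan receptor, had 110.2 and 127 CPM in EG1 control and 74.98 and 76.9 CPM in LG1 control, a log2 difference of 0.64 ± 0.07 (adjusted p = 1.58e-05), and 0.71 ± 0.07 (adjusted p = 4.16e-06) after IAA. Ckap2l, a spindle protein, was called after IAA alone (0.56 ± 0.10, adjusted p = 2.90e-03), with 0.37 ± 0.10 (adjusted p = 0.0675) in control and an interaction that was not called. The spindle pole organiser Aspm stood at 0.44 ± 0.09 (adjusted p = 0.0171), and Nusap1, Dlgap5 and Ckap2 at 0.30, 0.20 and 0.19 without a call.

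In the central spindle and cytokinesis group Prc1 and Kif20a went in opposite directions. Prc1, which bundles antiparallel microtubules at the central spindle, had 16.2 and 20.7 CPM in EG1 control and 32.2 and 44.9 CPM in LG1 control. In cells given IAA it had 15.4 and 16.6 CPM in EG1 and 37.8 and 45.2 CPM in LG1. The EG1 libraries of Prc1 lay below the LG1 ones throughout, by -1.06 ± 0.09 (adjusted p = 3.79e-07) in control and -1.37 ± 0.09 (adjusted p = 2.30e-08) after IAA. Kif20a, the kinesin MKLP2 that carries the passenger complex to the midzone, had 82.9 and 150.4 CPM in EG1 control and 63.3 and 98.9 CPM in LG1 control, a log2 difference of 0.50 ± 0.07 (adjusted p = 2.75e-04) at the very edge of the size limit. Kif23 and Racgap1, which form the centralspindlin complex, stood close together at 0.40 ± 0.08 (adjusted p = 0.0124) and 0.37 ± 0.07 (adjusted p = 0.0108), under the size limit. Ect2, Anln and Kif20b lay between -0.12 and 0.08.

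Chromosome structure genes included 2 of the 5 lower calls. Top2a had 171 and 272 CPM in EG1 control and 359 and 470 CPM in LG1 control. After IAA its levels were 167 and 267 CPM in EG1 and 397 and 485 CPM in LG1. No EG1 library of Top2a reached the lowest LG1 library, and the log2 fold change was -0.92 ± 0.08 (adjusted p = 6.73e-07) in control and -1.05 ± 0.08 (adjusted p = 1.40e-07) after IAA. Smc4, the condensin core subunit, had 70.3 and 79.8 CPM in EG1 control and 131 and 149 CPM in LG1 control, a log2 difference of -0.90 ± 0.07 (adjusted p = 6.67e-08), and -0.98 ± 0.07 (adjusted p = 2.30e-08) after IAA. Smc2, the other core subunit, stood at -0.09 ± 0.07 (adjusted p = 0.668) and the condensin I subunits Ncapg and Ncapd2 at 0.11 ± 0.07 and 0.34 ± 0.08, so the subunits of 1 complex did not share a direction. Mki67, the Ki-67 proliferation marker that coats mitotic chromosomes, had 310 and 371 CPM in EG1 control and 238 and 325 CPM in LG1 control (0.28 ± 0.08, adjusted p = 0.0812).

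**Figure D2:**
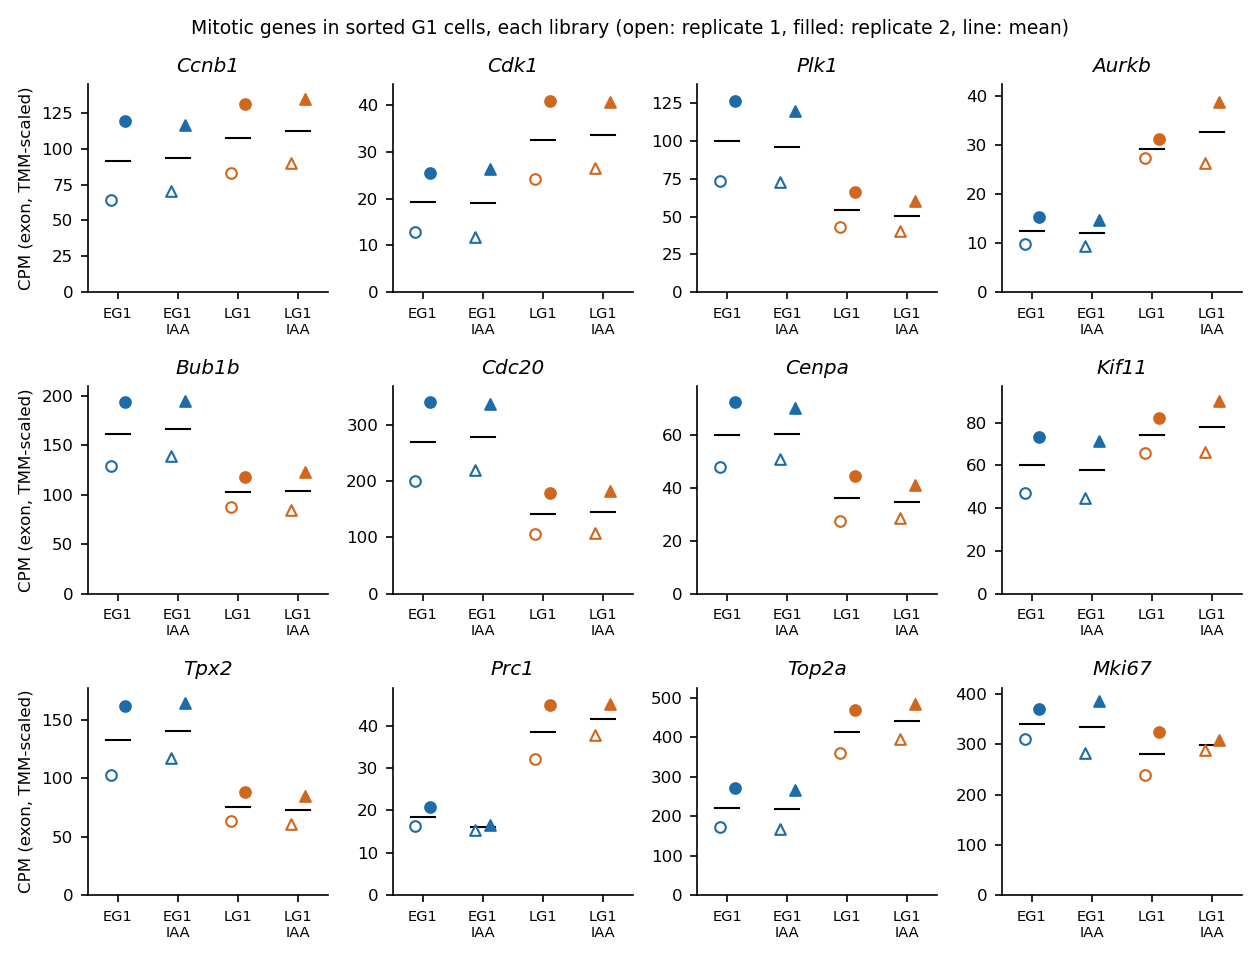
Exon CPM (y axis, TMM-scaled, from 0) of a panel of 12 mitotic genes in each of the 8 sorted libraries, with EG1 in blue and LG1 in orange, control as circles, IAA as triangles, replicate 1 open and replicate 2 filled, and a line at the mean of each group. Replicate 2 lies above replicate 1 in nearly every group, and Cdc20, Plk1, Cenpa and Tpx2 are higher and Aurkb, Prc1 and Top2a lower in EG1 than in LG1 in both replicates.

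The calls between EG1 and LG1 rest on removing a difference between replicates that ran through nearly all members. Replicate 2 exceeded replicate 1 in 48 of 48 members in EG1 control, 47 in EG1 after IAA, 46 in LG1 control and 44 in LG1 after IAA, with median log2 ratios of 0.60, 0.47, 0.37 and 0.37, while the median over all genes was between -0.03 and 0.02. In wtSRCAP and cdSRCAP cells, which were also sorted, replicate 2 was higher by medians of 0.46 and 0.58 (wtSRCAP control and IAA) and 0.44 and 0.22 (cdSRCAP control and IAA). For CGR8 and the SYAT libraries the medians lay between -0.07 and 0.11. Replicate 2 was still higher in 41 of the 48 members in SYAT control and in 38 at 2 h. It was higher in 26, 21 and 20 members at 4, 6 and 8 h, and in 29 (control) and 31 (IAA) in CGR8. What differed between the sorted replicates was not tested. With 1 library left out and the block kept, the number of members called stayed between 13 and 14 in control and between 16 and 18 after IAA. The split by direction moved more, to 7 lower and 6 higher in control without replicate 2 of EG1, and to 6 lower and 12 higher after IAA without replicate 1 of LG1.

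**Figure D3:**
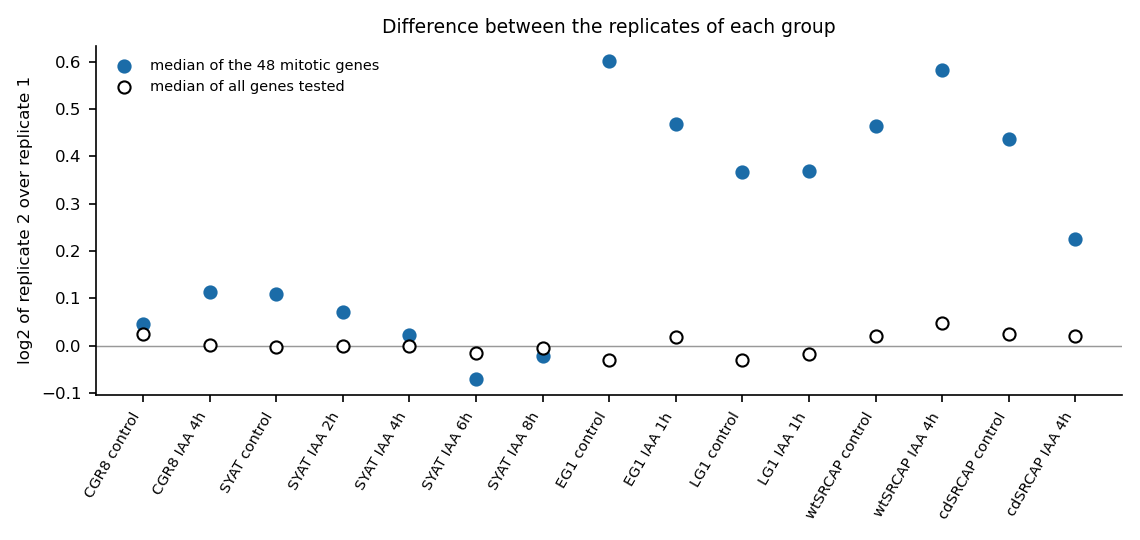
Median log2 ratio of replicate 2 over replicate 1 (y axis) in each of the 15 groups (x axis), with filled points for the 48 mitotic genes and open points for all genes tested. The mitotic genes lie at 0.22 to 0.60 in the 8 groups sorted on fluorescence for phase or transgene level. For CGR8 and the SYAT libraries they lie at -0.07 to 0.11, while all genes stay near 0 everywhere.

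The deposited intron columns of the sorted table were not made in the same way for the phases, which limits what the exon columns can be set against. Of genes with a single exon and at least 20 exon counts, 34.1% to 41.4% had intron counts in the EG1 libraries and at most 0.045% in the LG1 ones, so EG1 intron columns also hold exonic reads. The intron columns of the SYAT time course are of the EG1 kind (34.98% to 47.2%) and those of CGR8 of the LG1 kind. Aurkb had 101 and 103 exon CPM in SYAT control and 151 and 116 in CGR8 control. Prc1 had 87.2 and 101 in SYAT control and 95.5 and 118 in CGR8 control, in tables scaled separately. Other called members differed in either direction, with means in SYAT and CGR8 control of 220 and 136 for Smc4, 201 and 155 for Plk1, and 83.3 and 117 for Cenpa. Differences between these tables were not tested and are not evidence on the counting. Whether the exon columns of EG1 and LG1 were also counted differently cannot be told apart from the phase. Of the 14 members called in control, Cdc20, Plk1, Tpx2, Kif20a, Prc1, Top2a and Smc4 overlap another gene, and Aurkb, Cdk1, Cenpa, Hmmr, Bub1b, Ccnb2 and Aurka overlap none.

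Other genes of the cycle, from lists that hold no member, also differed between EG1 and LG1 in the fit with the block. Of 42 tested genes among other G2/M genes, 4 were lower and 2 higher in control, and 7 lower and 2 higher after IAA. Cdca5, sororin, which protects cohesion, had 22.5 and 45.8 CPM in EG1 control and 53.7 and 75.1 CPM in LG1 control (-0.96 ± 0.11, adjusted p = 1.42e-05). Spag5, astrin, a spindle protein, had 50.8 and 66.7 CPM in EG1 control and 37.2 and 42.0 CPM in LG1 control (0.56 ± 0.07, adjusted p = 1.24e-04). The condensin II subunit Ncapg2 was lower in EG1 by -0.55 ± 0.08 (adjusted p = 3.62e-04), and Cep55 and Depdc1b were lower by -0.54 and -0.53, while Pimreg was higher by 0.62. These genes again lay on both sides of 0, with a median of -0.08.

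Among 24 genes that control mitotic entry and exit, 2 were lower in control and 3 after IAA, and none was higher. Fbxo5, the gene of EMI1, the interphase inhibitor of the APC/C, had 14.7 and 30.7 CPM in EG1 control and 39.9 and 66.4 CPM in LG1 control, a log2 fold change of -1.26 ± 0.09 (adjusted p = 3.48e-08). Wee1, which holds CDK1 inactive, had 31.0 and 49.7 CPM in EG1 control and 55.1 and 73.1 CPM in LG1 control (-0.69 ± 0.08, adjusted p = 1.33e-05). Of the 25 regulators of the G2/M programme, E2f8, a repressor of E2F targets, was called in control (-0.85 ± 0.13, adjusted p = 5.90e-04), and E2f8, E2f1, E2f2 and Rbl1 were lower after IAA. Foxm1, the activator of G2/M genes, had 36.3 and 63.9 CPM in EG1 control and 36.0 and 53.7 CPM in LG1 control, which overlapped (0.14 ± 0.09, adjusted p = 0.566). All 25 G1/S genes, which late G1 cells are known to switch on, lay below 0 in EG1, with a median of -0.35 in control and -0.41 after IAA, and 5 and 9 of them were called. The 10 ES cell markers had a median of -0.33 in control with 0 called, and 8 of them had an unadjusted p under 0.05 in the lower direction and 1 in the higher. Because the share of all genes with such a p in that fit is not given here, these counts are not read as a result about the markers. The summed level of the ES cell markers was 1918 and 2243 CPM in EG1 control and 2257 and 2534 CPM in LG1 control, and that of the differentiated or feeder markers (0 of 8 tested called) was 322 and 336 CPM against 374 and 381 CPM. The part of these markers in the result was not tested.

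One hour of IAA gave no call among the 48 members in either phase. In EG1 their log2 fold changes lay between -0.21 (Prc1) and 0.18 (Pttg1) with a median of 0.0037, and in LG1 between -0.22 (Pttg1) and 0.23 (Birc5) with a median of 0.05, beside 0.00055 and 0.0092 over all genes. edgeR called 0 members and 0% of all genes in EG1 and in LG1, DESeq2 called 0 members and 0% of all genes, and 0 members had an unadjusted p under 0.05, where 1.22% of all genes in EG1 and 1.02% in LG1 had one. The medians depended on single libraries. In EG1 the median was -0.25 without replicate 1 and 0.33 without replicate 2 of the control, and 0.22 and -0.26 without replicates 1 and 2 of IAA. In LG1 it was -0.16 and 0.24 without replicates 1 and 2 of the control, and 0.19 and -0.14 without replicates 1 and 2 of IAA. With the block kept, leaving out 1 library gave medians of -0.05 to 0.09 in EG1 and -0.02 to 0.11 in LG1. With the block, 0 members in EG1 and 2 in LG1 had an unadjusted p under 0.05. The share of all genes with such a p in that fit is not given here, so these counts are not read as a result about the members. The lowest p in EG1 belonged to Kif18a (-0.17 ± 0.16) and Prc1 (-0.21 ± 0.21), and in LG1 to Kif18b (0.15 ± 0.14) and Birc5 (0.23 ± 0.25). The interaction of IAA and phase gave 0 calls by edgeR or DESeq2 (0% of all genes) and 0 members at an unadjusted p under 0.05 against 0.699% of genes, with Prc1 at -0.31 ± 0.29 and Pttg1 at 0.40 ± 0.49. With 2 libraries against 2, an exact permutation test cannot go below p = 0.33.

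In the SYAT time course the members stayed near the level of the controls, which the 4 comparisons share. edgeR and DESeq2 called 0 members at each of the 4 times. The median log2 fold change was 0.05 at 2 h, 0.06 at 4 h, -0.03 at 6 h and 0.06 at 8 h, beside 0.0034, 0.02, 0.01 and 0.03 over all genes. Over all genes, edgeR called 0% at 2 h, 0% at 4 h, 0.0677% at 6 h and 0.00521% at 8 h, and DESeq2 called 0.0469%, 0.953%, 3.37% and 2.32%. Without replicate 1 of the controls, the medians were 0.0010, -0.00066, -0.06 and -0.0071, and without replicate 2 of the controls they were 0.12, 0.12, 0.04 and 0.13. At an unadjusted p under 0.05 there was 1 member at 2 h (3.92% of all genes), 2 at 4 h (9.09%), 5 at 6 h (16.1%) and 4 at 8 h (13.6%), and these counts are at or below what the percentages of all genes give for 48.

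Prc1 and Kif23 had the lowest p at 2, 4 and 8 h. Prc1 had 87.2 and 101 CPM in control, 119 and 120.2 at 2 h, 123 and 121 at 4 h, 121 and 101 at 6 h, and 119 and 117 at 8 h. The IAA libraries of Prc1 lay above both controls, except that replicate 2 at 6 h was level with the higher control, with log2 fold changes of 0.34 ± 0.13, 0.38 ± 0.13 and 0.33 ± 0.13 at 2, 4 and 8 h that were not called (adjusted p = 1.00, 0.402 and 0.318). Kif23, the centralspindlin motor, had 104 and 115 CPM in control, 122 and 136 at 2 h, 137 and 147 at 4 h, 129 and 141 at 6 h, and 136 and 149 at 8 h. Every IAA library of Kif23 lay above both controls, by 0.23, 0.37 and 0.38 at 2, 4 and 8 h (adjusted p = 1.00, 0.379 and 0.226). Pttg1 was the lowest member at 8 h, with 9.8 and 9.7 CPM in control and 7.0 and 6.2 CPM at 8 h (-0.56 ± 0.23, adjusted p = 0.339).

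**Figure D4:**
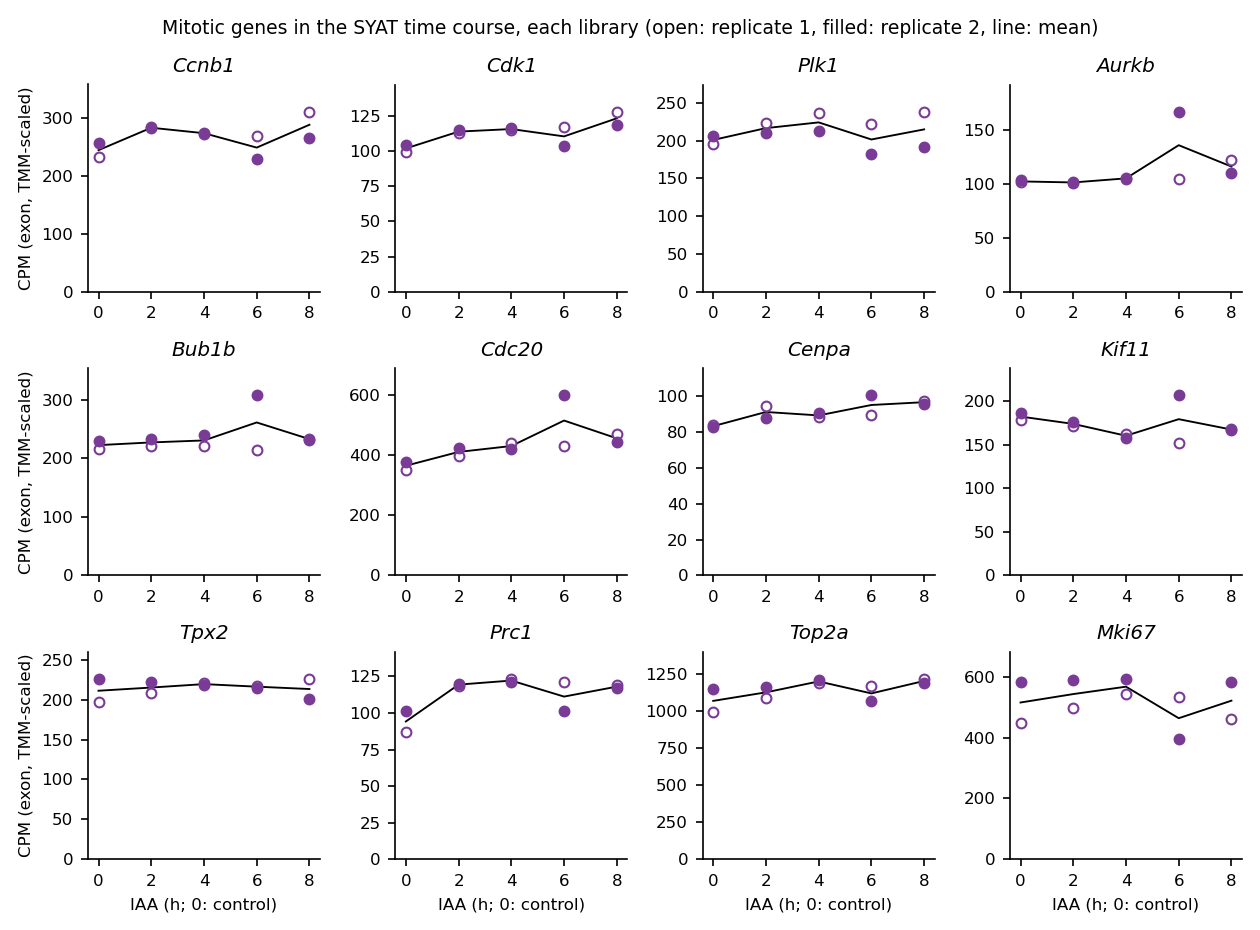
Exon CPM (y axis, TMM-scaled, from 0) of the panel of 12 mitotic genes against hours of IAA (x axis, 0 for control) in the 10 SYAT libraries, replicate 1 open, replicate 2 filled, and a line through the means. The replicates lie apart at 6 h, where replicate 2 is higher than replicate 1 for Aurkb, Bub1b, Cdc20 and Kif11 and lower for Mki67.

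The 6 h point rests on replicates that differ. Cdc20 had 352 and 377 CPM in control and 431 and 599 CPM at 6 h, a log2 fold change of 0.50 ± 0.15 (adjusted p = 0.172). Smc2 had 228 and 249.98 CPM in control and 202 and 160.5 CPM at 6 h (-0.40 ± 0.14, adjusted p = 0.207). Aurkb had 101 and 103 CPM in control, 104 in replicate 1 at 6 h and 167 in replicate 2, so its 6 h value is set by 1 library. Without replicate 1 at 6 h, 10 members were called, 6 lower (Ckap2l, Smc2, Nusap1, Kif18a, Ttk and Bub1) and 4 higher (Cdc20, Aurkb, Aurka and Birc5), in a fit that called 15.4% of all genes, and without replicate 2 none was. Replicate 2 at 6 h is also the SYAT library in which the gene without a symbol takes its largest share of the counts (10.2%).

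CGR8 cells, which have no degron, served as the control for IAA itself, and their members tended upward after 4 h. The median log2 fold change was 0.12 beside -0.00030 over all genes, and 37 members lay above 0 and 11 below. edgeR called 0 members and 0.00988% of the 20250 genes, DESeq2 called 0 members and 0.691% of all genes, and 10 members had an unadjusted p under 0.05, all higher, where 9.16% of all genes had one in either direction. Cdk1 had 106 and 95.3 CPM in control and 125 and 145 CPM after IAA (0.42 ± 0.14, adjusted p = 0.540). Hmmr had 157 and 169 CPM in control and 196 and 242 CPM after IAA (0.42 ± 0.15, adjusted p = 0.540). For both genes each IAA library lay above each control library. Ttk was the highest member (0.49 ± 0.18), with 51.2 and 68.1 CPM in control and 75.7 and 91.8 CPM after IAA, and Ncapd2 the lowest (-0.21 ± 0.13).

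By role, the 7 spindle assembly proteins and the 7 central spindle and cytokinesis genes of CGR8 all lay above 0, with medians of 0.24 and 0.12, and the passenger complex and the APC/C members lay around 0, with medians of -0.0020 and -0.06. Cdc20, the highest gene per kb, had 432 and 375 CPM in control and 415 and 357 CPM after IAA. Mki67 had 235 and 343 CPM in control and 350.2 and 374 CPM after IAA, so its control replicates lay further apart than its IAA replicates. Without replicate 2 of the control, 6 members were called higher (Ttk, Kif20b, Mki67, Smc2, Ckap2l and Bub1) in a fit that called 10.9% of all genes, 6.79% higher, and with any other library left out 0 were. These 6 were named after their values were seen.

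In cells with an SRCAP transgene, the members of cdSRCAP control cells lay below those of wtSRCAP control cells. The median log2 fold change was -0.30 beside -0.02 over all genes, and 47 of the 48 members were below 0, Birc5 (0.02) being the exception. edgeR called 0 members and 0% of all genes, DESeq2 0 members and 0.12% of all genes, and 1 member, Cenpf, had an unadjusted p under 0.05, where 3.82% of all genes had one. With the block, added here on the same ground, edgeR called 0 members and 0.91% of all genes. In that fit 22 members had an unadjusted p under 0.05, all lower, where 10.1% of all genes had one. Cenpf, which has the longest exon sequence of the 48 members, had 671 and 633 CPM in wtSRCAP control and 490 and 419 CPM in cdSRCAP control. Both cdSRCAP values lay below both wtSRCAP values, by -0.52 ± 0.23 (adjusted p = 1.00 without the block) and -0.53 ± 0.14 (adjusted p = 0.0673 with it), and DESeq2 with the block called it and 1.33% of all genes. Ccnb2 was next, with 60.3 and 64.8 CPM in wtSRCAP control and 40.5 and 51.8 CPM in cdSRCAP control (-0.44 ± 0.22), and Pttg1 was the lowest at -0.63.

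Other genes of the panel had lower means in cdSRCAP control cells and were not called. Top2a had 788 and 1246 CPM in wtSRCAP control and 694 and 1036 CPM in cdSRCAP control. Cdc20 had 359 and 463 CPM in wtSRCAP control and 308 and 397 CPM in cdSRCAP control. Mki67 had 1047 and 745 CPM in wtSRCAP control and 742 and 615 CPM in cdSRCAP control. The libraries of Top2a and Cdc20 overlapped between the groups and those of Mki67 did not, and in each of these the replicates of 1 group were further apart than the group means. Leaving out 1 library moved the median of the 48 members from -0.52 (without replicate 2 of cdSRCAP control) to -0.04 with 28 members below 0 (without replicate 2 of wtSRCAP control), and it was -0.07 without replicate 1 of cdSRCAP control. In the same comparison the ES cell markers had a median of 0.43 (summed level 3092 and 3645 CPM in wtSRCAP control, 3547 and 4752 CPM in cdSRCAP control) and the differentiated markers a median of 0.50 over the 8 tested, with summed levels of 51.1 and 81.7 CPM and of 57.03 and 65.1 CPM. Their part in the result was not tested, and each transgene is 1 clone, so clone and SRCAP form cannot be told apart.

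After 4 h of IAA, the median of the members in cdSRCAP cells was 0.24 beside 0.02 over all genes, with 41 members above 0 and 7 below. It was 0.05, with 27 above and 21 below, without replicate 1 of cdSRCAP control, 0.48 without replicate 2 of that control, and 0.13 without replicate 2 of IAA. edgeR called 0 members and 0% of all genes and 0 members had an unadjusted p under 0.05 (5.64% of all genes). With the block 0 were called, beside 1.81% of all genes, and 19 had an unadjusted p under 0.05, all higher, where 14.7% of all genes had one. Kif23 had 103 and 113 CPM in cdSRCAP control and 153 and 158 CPM after IAA, both above both controls (0.53 ± 0.15, adjusted p = 0.0625 with the block), and DESeq2 with the block called it and 2.72% of all genes. Kif20b, another midzone kinesin, had 133 and 139.8 CPM in control and 192 and 182 CPM after IAA (0.46 ± 0.27). In wtSRCAP cells the median was 0.03 beside -0.02 over all genes. It was -0.19 and 0.25 without replicates 1 and 2 of the control, and 0.29 and -0.28 without replicates 1 and 2 of IAA. In this comparison edgeR called 0 members and 0.00523% of all genes, and 0 members had an unadjusted p under 0.05 (7.40% of all genes). With the block edgeR and DESeq2 called 0 members, beside 3.2% and 4.19% of all genes, and 10 members had an unadjusted p under 0.05, 6 lower and 4 higher, against 17.7% of all genes. Cdc20 had 359 and 463 CPM in wtSRCAP control and 577 and 517 CPM after IAA, both above both controls and not called (0.41 ± 0.23, adjusted p = 0.740). The 4 h comparisons of cdSRCAP and wtSRCAP use libraries of their own, and DESeq2 without the block called 0 members in either, beside 0.115% and 0.11% of all genes.

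Between cdSRCAP and wtSRCAP cells after IAA the median was -0.03 beside 0.02 over all genes. It was -0.35, with 46 of 48 below 0, without replicate 1 of wtSRCAP and 0.14, with 38 above 0, without replicate 2 of wtSRCAP. Without replicates 1 and 2 of cdSRCAP it was 0.02 and -0.14. edgeR called 0 members and 0.00523% of all genes, DESeq2 0 members and 0.0419% of all genes, and Nek2 alone had an unadjusted p under 0.05 (5.03% of all genes). With the block edgeR called 0 members and 1.41% of all genes, and 7 members had an unadjusted p under 0.05, 6 lower and 1 higher, where 14.1% of all genes had one. Nek2 had 196 and 147 CPM in wtSRCAP and 118 and 119 CPM in cdSRCAP cells after IAA (-0.53 ± 0.21, adjusted p = 0.951), and DESeq2 with the block called it and 2.12% of all genes. Ncapd2 had 489 and 454 CPM in wtSRCAP and 371 and 340.2 CPM in cdSRCAP cells after IAA (-0.41 ± 0.19). For both genes each cdSRCAP library lay below each wtSRCAP library. The interaction of IAA and SRCAP form had a median of 0.20 beside 0.02 over all genes, with 0 members called by edgeR or DESeq2 (0% of all genes) and 0 at an unadjusted p under 0.05 (0.785% of all genes). The median changed sign, to -0.07 with 33 of 48 below 0, without replicate 1 of wtSRCAP after IAA, and to -0.05 without replicate 2 of wtSRCAP control. It was 0.45 and 0.48 without replicate 1 of wtSRCAP control and replicate 2 of wtSRCAP after IAA, 0.04 and 0.51 without replicates 1 and 2 of cdSRCAP control, and 0.09 without replicate 2 of cdSRCAP after IAA. With the block edgeR and DESeq2 called 0 members, beside 0% and 0.00523% of all genes, and 6 members, all higher, had an unadjusted p under 0.05, where 2.94% of all genes had one, and the lowest adjusted p was 0.998. Mki67 had the lowest p without the block, at 0.56 ± 0.38. The interaction and the 4 comparisons of this table share libraries, and replicate 1 of wtSRCAP after IAA is the library in which the gene without a symbol took 23.9% of the counts.

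**Figure D5:**
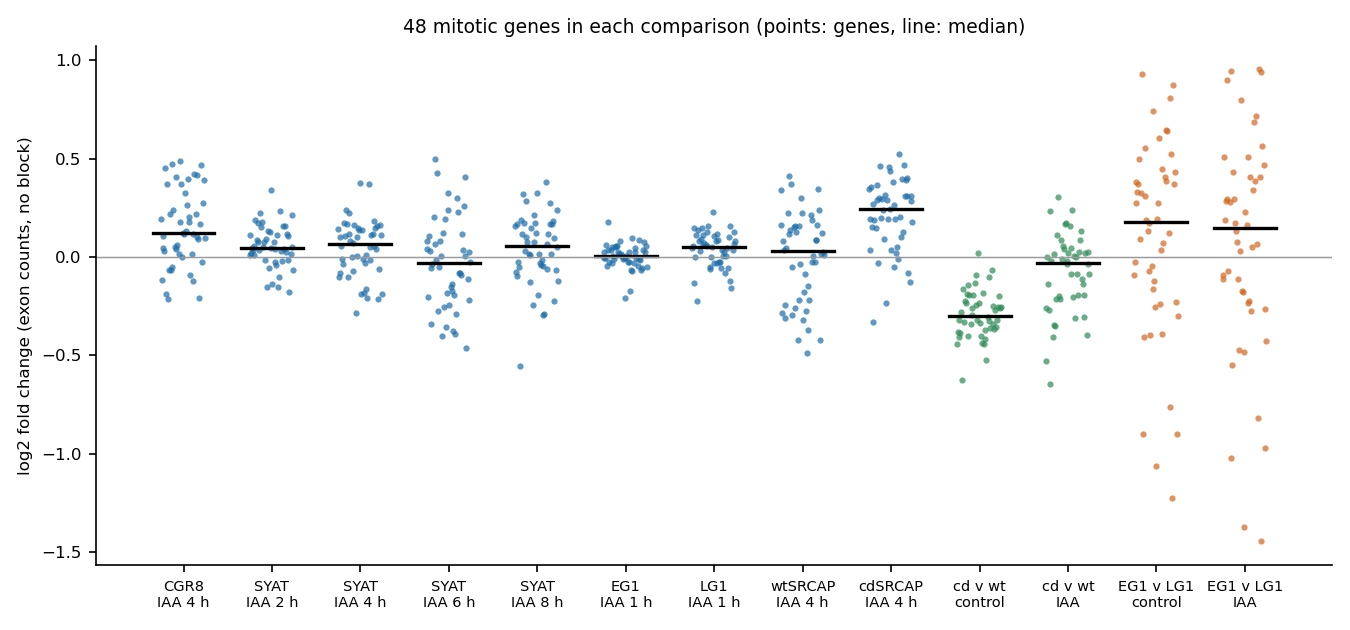
Log2 fold change (y axis, exon counts, edgeR without a block) of each of the 48 mitotic genes in 13 comparisons (x axis), with a line at the median. Blue marks IAA against control, green cdSRCAP against wtSRCAP and orange EG1 against LG1. The genes span -1.22 to 0.93 between EG1 and LG1 in control and -0.21 to 0.18 after 1 h of IAA in EG1.

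In the other lists, edgeR without the block called 0 genes in any comparison. With it, in the paired tables and outside EG1 against LG1, Plk4, the kinase of centriole duplication, was lower after IAA in wtSRCAP cells (-0.61 ± 0.17, adjusted p = 0.0480), Ccne1, cyclin E1, was higher after IAA in cdSRCAP cells (0.56 ± 0.14, adjusted p = 0.0428), and Pimreg, a mitotic regulator, was lower in cdSRCAP than wtSRCAP cells after IAA (-1.21 ± 0.20, adjusted p = 2.41e-03). Of the ES cell markers, Klf4 was higher in cdSRCAP than in wtSRCAP cells in control (0.84 ± 0.16), Klf4, Nanog and Zfp42 were higher in cdSRCAP cells after IAA (0.71, 0.76 and 0.53), and Nanog rose after IAA in cdSRCAP cells (0.74 ± 0.16). Of the differentiated markers, Pax6 and Thy1 rose after IAA in wtSRCAP cells (0.84 and 1.57), Pax6 rose in cdSRCAP cells (0.86), and Nes was lower in cdSRCAP than in wtSRCAP cells after IAA (-0.88). No G2/M regulator and no gene of mitotic entry and exit control was called in these 5 comparisons or after IAA in EG1 or LG1.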

How the data were processed

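The members and the gene lists were chosen with earlier results of these data known. Per the authors' methods, reads of nuclear RNA libraries (directional kit) were aligned to mm10 with STAR and counted with featureCounts on GENCODE M25. The deposited tables hold raw, whole-number counts, 1 exon and 1 intron column for each library, without normalization, and 0 columns of per-sample values were left unused. Deposited tables of the authors' own comparisons (log2 fold changes and p-values) were not used. SAMtools 1.10 is named in the submitters' processing notes. Auxinole is given as nM in the labels and as µM in the methods, so its dose is not printed.

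Each of the 4 exon tables was fitted whole in R 4.3.3 with edgeR 4.0.16 (filterByExpr by group, minimum count 10, minimum total 15, TMM, quasi-likelihood test, Benjamini-Hochberg adjustment over all genes tested, 20250 in CGR8, 19205 in SYAT, 21020 in EG1 and LG1, and 19111 in the lines with an SRCAP transgene). A call needed an adjusted p under 0.05 and an absolute log2 fold change over 0.5. Standard errors of edgeR were derived for each comparison as the absolute log2 fold change over the square root of its quasi-likelihood F statistic. CPM values are TMM-scaled. DESeq2 1.42.0 was an alternative, and the scripts were tested on simulated data. The labels call the replicates biological duplicates, 2 per group. The p-values rest on a spread estimated over all groups of a table and moderated across genes. With the block, that spread is what remains after the difference between replicate numbers is removed.

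Replicate numbers were taken to pair libraries where the deviations of every pair of groups in a table of 3 or more groups correlated above 0.1. The correlations over genes were 0.372 to 0.586 in the 6 pairs of groups of the sorted table and 0.259 to 0.376 in the 6 pairs of wtSRCAP and cdSRCAP groups, which were therefore paired. They were -0.0359 to 0.589 in the 10 pairs of SYAT groups and 0.0736 in the 1 pair of CGR8, which were not. The named genes were a panel of 12 members, the called members (or, with none called, the 2 with the lowest p), and the highest and lowest where a range is given. Members called with the block, and the other genes described by role, were named after their values were seen. Symbols and coordinates (GRCm38) came from GENCODE M21, in which 54349 of 55401 identifiers have the same version. Alternatives were another normalization, no filter on low counts, DESeq2, the replicate block, the intron columns and each library left out in turn. Leaving libraries out of the fit with the block, thinning EG1 libraries, and dropping replicate 2 at 6 h from the SYAT fit were chosen after seeing the data.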

Additional observations from a re-analysis of the deposited data

How the results depend on the processing

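The number of members called did not depend on the setting in 8 of the 15 comparisons, where it was 0 throughout, leave-one-out included. Between EG1 and LG1 in control it was 0 with edgeR, 1 with DESeq2, 7 without the filter on low counts, 14 with edgeR and the replicate block, 13 with DESeq2 and the block, 13 with the block and EG1 libraries thinned to the mean LG1 total, and 26 in the intron columns, where the share of all genes called was 0%, 0.00476%, 0.19%, 0.723%, 0.504%, 0.745% and 59%. After IAA the same settings gave 0, 2, 10, 16, 17, 16 and 25 members, beside 0%, 0.00951%, 0.256%, 1.01%, 0.69%, 1.03% and 64.4% of all genes. The intron counts are close to the share over all genes and say nothing about the members. With the block and 1 library left out the counts were 13 to 14 and 16 to 18. DESeq2 with the block called 1 member each in IAA against control in cdSRCAP (Kif23), cdSRCAP against wtSRCAP in control (Cenpf) and after IAA (Nek2), beside 2.72%, 1.33% and 2.12% of all genes, and edgeR with the block called 0 there. Leave-one-out gave 0 to 6 in CGR8 and 0 to 10 in SYAT at 6 h, where the highest counts came with 10.9% and 15.4% of all genes. The replicate block changed no call of members in CGR8 or SYAT, where numbers do not pair the libraries (r from -0.0359). It brought 14 CGR8 members to an unadjusted p under 0.05 from 10. The share of all genes with such a p in that fit is not given here, so the rise is not read as a result about the members. With the block, 2.47% of all genes were called in CGR8, among them Depdc1a, Ccne2, Nanog, Tdgf1 and Pax6 (higher) and Nes (lower) of the other lists. At most 4.29% were called in SYAT, among them Nanog and Pax6 (higher) and Shcbp1 (lower) at 6 and 8 h and Cdca5 (higher) at 6 h. Of 605 values of the 73 named members and comparisons under alternatives, 534 kept direction and stayed uncalled, 51 became calls and 20 changed sign. No call could be lost, since edgeR without the block called 0 members. Of the 51 new calls, 30 came from the block itself, and members it called between EG1 and LG1 were named for that reason. The tally therefore does not measure how the reported EG1 against LG1 calls hold under other settings. In the intron columns the changed signs were Cdk1 (-0.0533) and Hmmr (-0.0361) in CGR8, Birc5 (-0.0325) and Pttg1 (0.28) after IAA in LG1, Plk1 (-11.04), Aurka (-11.16) and Top2a (1.83) in EG1 against LG1 in control, Plk1 (-10.90) and Top2a (1.553) after IAA, Aurkb (-0.21) in wtSRCAP, Pttg1 (0.34) in cdSRCAP, Birc5 (-0.26) and Ckap2 (-0.14) in cdSRCAP against wtSRCAP in control and after IAA, and Kif18b (0.38) in the interaction with SRCAP form. EG1 intron columns hold exonic reads and LG1 ones do not, so these EG1 against LG1 intron values compare 2 kinds of count. With 1 library left out, Pttg1 ranged from -0.11 to 0.56 after IAA in EG1 and from -0.57 to 0.18 in LG1, Birc5 from -0.23 to 0.30 in cdSRCAP against wtSRCAP control and Ckap2 from -0.10 to 0.77 after IAA. The cause of the other changes was not tested.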
